A study of Homo sapiens with 30 samples.

Results

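The POU3F genes POU3F1, POU3F2, POU3F3 and POU3F4 encode the class III POU transcription factors and were followed here through the differentiation of human embryonic stem cells. They were taken as the genes whose symbols the array's probe annotation gives for a probe, which found 4 probes, 1 for each gene, among 48701 probes and 4 genes among 18774 named genes. The cells were H9, an established human embryonic stem cell line, and total RNA was hybridised to 30 Illumina bead arrays. The labels give 10 groups of 3 biological replicates each, namely day 1, day 3, and an arm called PIP and an arm called NSB at days 5, 7, 9 and 11. The labels do not spell out the arm names. As background on this study, NSB is neural induction with noggin and the inhibitor SB431542, which block BMP and TGF-beta family signalling, and PIP is a placode induction protocol that begins in the same way. Placodes are thickenings of the embryonic head ectoderm that form the lens, the inner ear, the anterior pituitary and cranial sensory neurons. All groups are 1 cell line of unmodified genotype as far as the labels say, and nothing says whether the replicates were separate cultures, so p-values measure the spread between these arrays. The arrays of days 3 and 5 carry a pair of sample codes each, and whether this means pooled RNA is not stated.

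POU proteins bind DNA through a POU-specific domain joined to a homeodomain, and many recognise an octamer sequence, often beside a SOX protein. POU3F1, also called OCT6, acts in Schwann cells and epidermis and, in mouse, promotes the neural fate of pluripotent cells. POU3F2, also called BRN2, acts in neural progenitors and young neurons and is one of the factors that can turn mouse fibroblasts into neurons. POU3F3 (BRN1) acts beside POU3F2 in the forebrain, and POU3F4 (BRN4) acts in the inner ear and the ventral brain. The class V gene POU5F1 (OCT4) maintains pluripotency, and the class IV gene POU4F1 (BRN3A) marks sensory neurons.

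The promoters of the 2 genes whose transcripts were detected are shown to give the sequence around their start sites, with CCAAT in capitals. Each is the 250 bases before the annotated start in RefSeq GRCh38.p14, written 5′ to 3′ on the strand of the gene. POU3F1 lies on chromosome 1 at 38043829 to 38046793, and its promoter window is chr1:38046794-38047043 on the minus strand. POU3F2 lies on chromosome 6 at 98834574 to 98839458, and its window is chr6:98834324-98834573 on the plus strand.
POU3F1 promoter: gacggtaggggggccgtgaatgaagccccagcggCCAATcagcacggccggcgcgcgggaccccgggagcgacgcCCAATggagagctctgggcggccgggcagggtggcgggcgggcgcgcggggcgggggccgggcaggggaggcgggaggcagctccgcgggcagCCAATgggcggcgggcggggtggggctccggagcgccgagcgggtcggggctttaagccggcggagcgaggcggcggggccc
POU3F2 promoter: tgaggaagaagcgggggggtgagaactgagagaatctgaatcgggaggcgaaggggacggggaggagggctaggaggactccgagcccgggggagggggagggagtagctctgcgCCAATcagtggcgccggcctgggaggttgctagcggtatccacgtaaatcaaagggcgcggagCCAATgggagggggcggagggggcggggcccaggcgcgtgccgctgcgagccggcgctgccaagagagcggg
CCAAT was found 3 times in the POU3F1 window and 2 times in the POU3F2 window on either strand. Of 27305 promoter windows of the same length, 10% held CCAAT at least 2 times and 3.09% at least 3 times. The POU3F3 window on chromosome 2 and the POU3F4 window on chromosome X, which are not shown, held CCAAT 3 times each. The POU3F3 window, chr2:104853865-104854114 on the plus strand, lies inside the span annotated for that gene, 104853276 to 104927773. Its counts therefore do not describe the bases before the start of that span. The octamer ATGCAAAT and the TATA box TATAAA were found on neither strand of any of the 4 windows, against 1.66% and 11.1% of all windows with a match, and CCAAT therefore overlapped neither of them. The POU3F1 window held 36 CG dinucleotides and the POU3F2 window 22, where the median window held 11. These matches describe letters in the windows and are not binding sites.

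The median signal of an array was 45.4 to 74.7 and the share of probes detected was 34% to 37.7%, a probe counting as detected on an array where its detection p-value was under 0.05. No pair of arrays was identical. Of the 30 arrays 1, NSB day 7 replicate 1, correlated more closely with an array of another group than with 1 array of its own. Its r across genes was 0.9902 with a PIP day 7 array and 0.9876 with NSB day 7 replicate 2. With NSB day 7 replicate 3 its r was 0.993 or higher, so it was not closer to PIP than to its whole group. Results of the POU3F genes that rest on NSB day 7 replicate 1 are given with and without it. Levels are log2 intensities after background correction, an offset of 16 and quantile normalization, and folds on this scale understate the change of dim probes. A gene was called in a comparison when limma's moderated test over the 10 groups gave an adjusted p under 0.05, with Benjamini-Hochberg adjustment over 13488 genes tested.

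POU3F1 was detected on 30 of 30 arrays and POU3F2 on 16 of 30. POU3F3 and POU3F4 were detected on 0 of 30 arrays each, so only POU3F1 and POU3F2 passed the filter and entered the tests. The POU3F3 probe had signals of 34.3 to 63.7 and normalized levels of 4.57 to 4.80 over all arrays, and its lowest detection p-value was 0.254. The POU3F4 probe had signals of 44.4 to 80.8 and levels of 4.68 to 5.15, and its lowest detection p-value was 0.0655. Fitted without the filter, POU3F3 was called in 0 of 19 comparisons, with differences of -0.10 to 0.09 and a lowest adjusted p of 0.369 (limma). POU3F4 was called in 0 of 19 by the same fit, with differences of -0.24 to 0.18 and a lowest adjusted p of 0.113. With arrays scaled to the median of the probes detected on every array, differences between groups reached 0.64 for POU3F3 and 0.80 for POU3F4, both in NSB day 11 against day 3, with no array detected. Neither transcript was above background in any group, which does not show that it was absent. The sequences of the probes were not used here, so binding of a probe to the transcript of another POU3F gene was not checked.

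**Figure D1:**
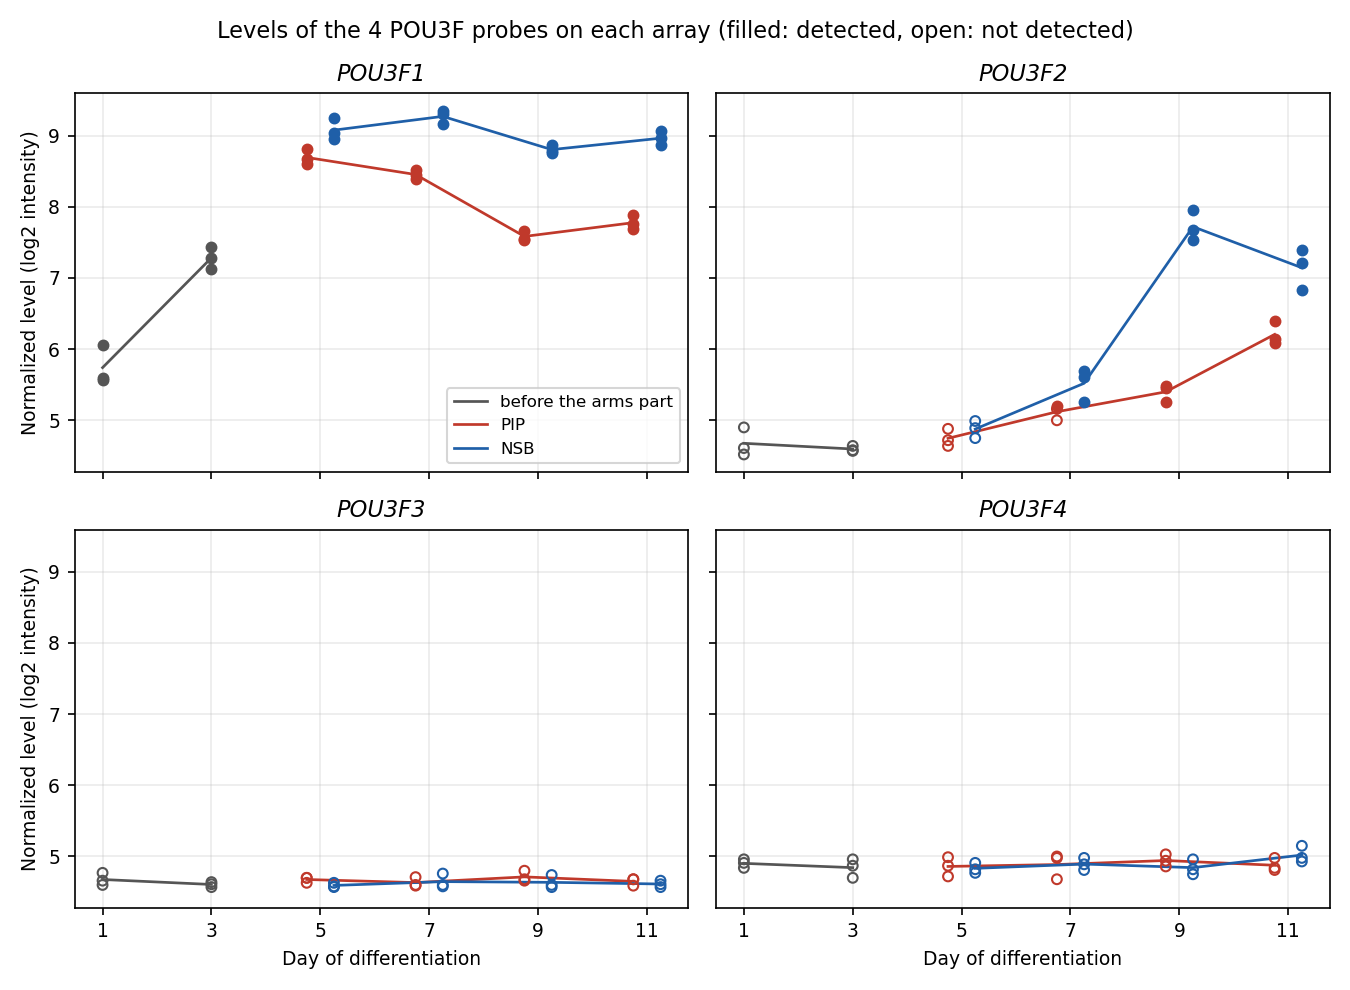
Normalized levels (log2 intensity) of the 4 POU3F probes against the day of differentiation, 1 point per array, with lines through the means of 3 arrays and PIP drawn left of NSB on each day. POU3F1 is detected throughout and lies lower in PIP than in NSB from day 5, POU3F2 comes above background from day 7 and peaks at 7.72 in NSB at day 9, and POU3F3 and POU3F4 stay between 4.57 and 5.15.

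POU3F1 rose before the arms part. Its level was 7.44, 7.28 and 7.13 on the 3 arrays of day 3, against 5.59, 5.57 and 6.06 on those of day 1. The day 1 signals lay near background, with detection p-values of 0.0218, 0.0291 and 0.0102. The 3 day 3 arrays all lay above the 3 day 1 arrays, and the difference was 1.54 ± 0.11 (SE), or 2.92-fold (adjusted p = 9.74e-13, limma). In this comparison 54.4% of all genes were called, so a call alone does not set the gene apart. POU3F2 was detected on 0 of 3 arrays at either day. Its levels were 4.58, 4.64 and 4.57 at day 3, against 4.61, 4.90 and 4.52 at day 1, and the difference was -0.08 ± 0.13, with a 95% interval of -0.36 to 0.19 (adjusted p = 0.639). Because the samples are bulk RNA, a change in the share of cells that express a gene and a change in the RNA per cell cannot be told apart.

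POU3F1 rose further in both arms by day 5. In PIP cells it stood at 8.81, 8.60 and 8.67 at day 5, which was 1.41 ± 0.11 or 2.66-fold above day 3 (adjusted p = 1.36e-11, limma, with 44.4% of genes called). In NSB cells it stood at 9.03, 8.95 and 9.25, which was 1.79 ± 0.11 or 3.47-fold above day 3 (adjusted p = 9.89e-14, with 36.8% called). Both comparisons use the same day 3 arrays. POU3F2 remained below detection on all 6 day 5 arrays. Its levels were 4.88, 4.64 and 4.72 in PIP and 4.99, 4.89 and 4.75 in NSB, and its differences from day 3 were 0.15 ± 0.13 in PIP (adjusted p = 0.388) and 0.28 ± 0.13 in NSB (adjusted p = 0.103).

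From day 5 the POU3F1 levels of PIP and NSB cells moved apart. In PIP it was 8.45, 8.39 and 8.52 at day 7, then 7.55, 7.54 and 7.66 at day 9, then 7.76, 7.88 and 7.69 at day 11. The step between days 5 and 7 was -0.24 ± 0.11 and did not pass the test (adjusted p = 0.0884, with 33.5% of genes called). The step between days 7 and 9 was the large one, -0.87 ± 0.11 or 1.83-fold lower at day 9 (adjusted p = 1.23e-07, with 46.4% called), and the 3 arrays of each day did not overlap. The step between days 9 and 11 was 0.19 ± 0.11 (adjusted p = 0.147, with 47.6% called).

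In NSB the POU3F1 level was 9.35, 9.30 and 9.16 at day 7, then 8.76, 8.78 and 8.87 at day 9, then 9.06, 8.96 and 8.87 at day 11. The step between days 5 and 7 was 0.19 ± 0.11 (adjusted p = 0.148, limma, with 42.7% called), and 0.15 without NSB day 7 replicate 1 (adjusted p = 0.315). It was -0.03 with arrays scaled to the median of all probes. The step between days 7 and 9 was -0.47 ± 0.11, or 1.38-fold lower at day 9 (adjusted p = 0.000627, with 47.8% called). It was -0.43 without NSB day 7 replicate 1 (adjusted p = 0.00421), and -0.33 with arrays scaled to the median of all probes, where it was not called (adjusted p = 0.0907, in a range of 6.38e-05 to 0.0907 over 9 alternative settings). The step between days 9 and 11 was 0.16 ± 0.11 (adjusted p = 0.221, with 51.1% called), but -0.35 with arrays scaled to the median of all probes (adjusted p = 0.052, in a range of 0.052 to 0.263 over 9 alternatives), so it has no settled direction. At day 11 POU3F1 was thus 1.68 ± 0.11 or 3.20-fold above day 3 in NSB (adjusted p = 6e-14, with 66.0% called), where PIP stood 0.49 ± 0.11 or 1.41-fold above day 3 (adjusted p = 0.00021, with 62.4% called). The PIP value was 0.29 and not called under the all-probe median scaling (adjusted p = 0.105, in a range of 4.93e-05 to 0.105 over the 9 settings).

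POU3F1 was lower in PIP than in NSB cells on every day after the arms part, and the 3 PIP arrays lay below the 3 NSB arrays each time. At day 5 it averaged 8.69 ± 0.11 in PIP and 9.07 ± 0.15 in NSB (SD, n = 3 each), a difference of -0.38 ± 0.11 (adjusted p = 0.0182, limma, with 11.5% of genes called). This call was lost without PIP day 5 replicate 2 (-0.34), PIP day 5 replicate 3 (-0.37) or NSB day 5 replicate 3 (-0.30), where adjusted p reached 0.123. At day 7 it averaged 8.45 ± 0.06 in PIP and 9.27 ± 0.10 in NSB, a difference of -0.81 ± 0.11 or 1.76-fold (adjusted p = 1.96e-06, with 12.4% called), and -0.78 without NSB day 7 replicate 1 (adjusted p = 3.12e-05). At day 9 it averaged 7.58 ± 0.06 in PIP and 8.80 ± 0.06 in NSB, a difference of -1.22 ± 0.11 or 2.33-fold (adjusted p = 4.99e-10, with 20.8% called). At day 11 it averaged 7.77 ± 0.10 in PIP and 8.96 ± 0.09 in NSB, a difference of -1.19 ± 0.11 or 2.28-fold (adjusted p = 6.69e-10, with 25.5% called).

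The arm difference of POU3F1 thus widened between days 5 and 11, by -0.80 ± 0.15 (adjusted p = 0.000254, limma interaction term, with 19.9% of genes called). It was -0.21 and not called with arrays scaled to the median of all probes (adjusted p = 0.447, in a range of 3.85e-05 to 0.447 over 9 alternatives), a scaling that moved the median of all genes in this comparison to 0.45, against 0.02. No single interval between neighbouring days passed the test for POU3F1. The change was -0.43 ± 0.15 between days 5 and 7 (adjusted p = 0.062, with 11.7% called), -0.40 ± 0.15 between days 7 and 9 (adjusted p = 0.11, with 6.41% called) and 0.03 ± 0.15 between days 9 and 11 (adjusted p = 0.939, with 8.10% called). Without NSB day 7 replicate 1 it was -0.39 between days 5 and 7 (adjusted p = 0.098) and -0.44 between days 7 and 9 (adjusted p = 0.0761).

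POU3F2 came up later than POU3F1, and mainly in NSB cells. In PIP it stood at 5.16, 5.20 and 5.00 at day 7, where 1 of 3 arrays was detected, and at 5.48, 5.46 and 5.26 at day 9. It then reached 6.08, 6.4 and 6.14 at day 11, with 3 of 3 arrays detected on both of these days. In NSB it stood at 5.69, 5.61 and 5.26 at day 7, at 7.67, 7.53 and 7.96 at day 9 and at 7.39, 7.21 and 6.83 at day 11, with 3 of 3 arrays detected each time. The NSB arrays of day 9 were the brightest of the series for this probe, with unnormalized signals of 220.5, 227.1 and 404.0, against 95.6, 92.7 and 77.6 in PIP at day 9.

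The large step of POU3F2 in NSB lay between days 7 and 9. It was 2.20 ± 0.13 or 4.59-fold higher at day 9 (adjusted p = 1.85e-13, limma), the gene of rank 39 by size of difference among all 13488, and 2.28 without NSB day 7 replicate 1 (adjusted p = 1.97e-12). Before it, the step between days 5 and 7 was 0.64 ± 0.13, at least 1.31-fold since no day 5 array was detected (adjusted p = 0.000285, and 0.00308 with a difference of 0.56 without that array). After it the level fell, and day 11 against day 9 gave -0.57 ± 0.13, or 1.49-fold lower (adjusted p = 0.00069). The standard deviation of POU3F2 on the 3 NSB day 11 arrays was 0.29, where the median over all genes was 0.13.

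In PIP the POU3F2 level climbed in smaller steps. Day 7 against day 5 gave 0.37 ± 0.13 (adjusted p = 0.0325, limma), with 1 of 3 arrays detected at day 7 and 0 of 3 at day 5. With the undetected day 5 arrays set to at least the lowest detected level the fold was 0.954, so no minimum rise can be given. The call was lost in 4 of the 6 fits that left out 1 array. Those arrays were PIP day 5 replicates 2 and 3 and PIP day 7 replicates 1 and 2, with differences of 0.32, 0.36, 0.35 and 0.33. Day 9 against day 7 gave 0.28 ± 0.13 and did not pass (adjusted p = 0.0892). Day 11 against day 9 gave 0.81 ± 0.13 or 1.75-fold (adjusted p = 1.19e-05), and the arrays of the 2 days did not overlap. Against day 3, POU3F2 was at least 2.11-fold higher at day 11 in PIP (1.61 ± 0.13, adjusted p = 2.37e-11) and at least 4.03-fold higher in NSB (2.55 ± 0.13, adjusted p = 9e-16), comparisons that share the day 3 arrays.

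The PIP and NSB levels of POU3F2 stood farthest apart at day 9. At day 5 they averaged 4.75 ± 0.12 in PIP and 4.88 ± 0.12 in NSB, with no array detected and a difference of -0.13 ± 0.13, for which the 95% interval was -0.41 to 0.14 (adjusted p = 0.595). At day 7 they averaged 5.12 ± 0.10 in PIP and 5.52 ± 0.23 in NSB, a difference of -0.40 ± 0.13 that was only just called (adjusted p = 0.046). That call was lost without NSB day 7 replicate 1 (-0.32, adjusted p = 0.138) or replicate 2 (-0.36), and without PIP day 7 replicate 1 (-0.42), replicate 2 (-0.44) or replicate 3 (-0.35). It was also lost in 5 of 9 alternative settings, over which adjusted p was 0.0129 to 0.282. At day 9 they averaged 5.40 ± 0.12 in PIP and 7.72 ± 0.22 in NSB (SD, n = 3 each), a difference of -2.32 ± 0.13 or 5.00-fold (adjusted p = 7.27e-14), of rank 37 by size among all genes. The PIP arrays of day 9 lay near background, with detection p-values of 0.024, 0.0313 and 0.0466, which limits the size of this fold. At day 11 they averaged 6.21 ± 0.17 in PIP and 7.14 ± 0.29 in NSB, a difference of -0.94 ± 0.13 or 1.91-fold (adjusted p = 3.28e-06).

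**Figure D2:**
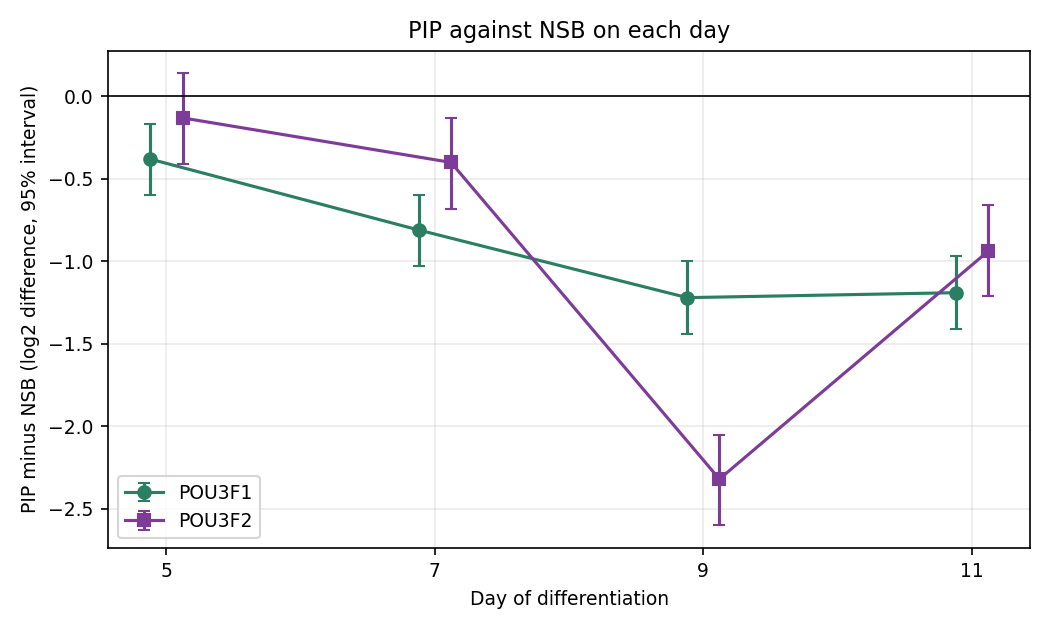
PIP minus NSB difference in level (log2, with 95% intervals) for POU3F1 and POU3F2 at days 5, 7, 9 and 11, from the fit over all 30 arrays. POU3F1 goes to -1.22 at day 9 and stands at -1.19 at day 11, whereas POU3F2 is -0.13 at day 5, -2.32 at day 9 and -0.94 at day 11.

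The widening and the later narrowing of the POU3F2 difference were both larger than the spread between arrays. The change between days 7 and 9 was -1.92 ± 0.19 (adjusted p = 6.96e-08, limma interaction term), of rank 12 among all genes by size, and -2.0 without NSB day 7 replicate 1 (adjusted p = 1.18e-07). The change between days 9 and 11 was 1.39 ± 0.19 (adjusted p = 1.61e-05), of rank 33. Between days 5 and 7 the change was -0.27 ± 0.19 (adjusted p = 0.404), and -0.19 without that array (adjusted p = 0.574). Over the whole span from day 5 to day 11 it was -0.80 ± 0.19 (adjusted p = 0.00281). That call was lost with arrays scaled to the median of all probes (-0.45, adjusted p = 0.126) and on the authors' processed values (-0.61, adjusted p = 0.109), in a range of 0.000342 to 0.126 over 9 alternatives. The changes of the arm difference between neighbouring days were added after the levels of the POU3F genes had been seen.

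Ordered by mean level, POU3F1 was highest in NSB at days 7, 5, 11 and 9, then in PIP at days 5, 7, 11 and 9, then at day 3 and lowest at day 1. The array ranges of neighbours in that order overlapped for NSB days 7 and 5, for NSB days 5 and 11 and for NSB day 9 and PIP day 5, so these pairs are not separated. For POU3F2 the order was NSB day 9, NSB day 11, PIP day 11, NSB day 7, PIP day 9, PIP day 7, NSB day 5, PIP day 5, day 1 and day 3. The ranges overlapped for NSB day 7 and PIP day 9 and for each pair of neighbours among the 4 groups with no array detected. The group means of POU3F1 and POU3F2 had a Pearson correlation of 0.40 and a Spearman correlation of 0.52 over the 10 groups, which share day and arm. POU3F2 ran with the eye and forebrain factor PAX6 at 0.73 and 0.95 and against POU5F1 at -0.83 and -0.92 by the same measures. The Spearman values also rank the 4 groups where POU3F2 was detected on no array, so part of them orders background values. A Spearman correlation of 0.952 with POU3F2 was only of rank 43 among 5963 genes.

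The genes whose group means ran most closely with POU3F1, among 5963 genes that span at least 1 log2 unit, were FEZ1 (Pearson 0.979), TSTD2 (0.971), TASOR (0.963), DPY19L3 (0.952) and MYT1 (0.951). FEZ1 is a protein of axon outgrowth, TASOR a subunit of a silencing complex and MYT1 a zinc finger factor of neural progenitors. FEZ1 was also first over the 30 arrays, where its correlation was 0.972, whereas TSTD2 was of rank 38 and DPY19L3 of rank 87. For POU3F2 they were KCNK10 (0.974) and KCNC1 (0.943), both potassium channels, PLAGL1 (0.940), an imprinted zinc finger factor, KIRREL1 (0.940), an adhesion molecule, and DCLK2 (0.935), a doublecortin-like kinase. KCNK10 was first over the 30 arrays as well, at 0.950, and KCNC1 fell to rank 443 by Spearman correlation. Correlations over 10 groups describe likeness in time and arm only.

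The other POU genes moved in several directions. Of 12 genes on that list 5 were tested, POU1F1, POU4F2, POU4F3 and POU5F2 did not pass the filter, and the others were not analysed here. POU5F1 was at its highest at day 1, with a mean of 12.26 ± 0.04 (SD, n = 3). Its difference between day 11 and day 3 was -4.45 ± 0.09 in PIP (adjusted p = 4.01e-25, limma) and -4.27 ± 0.09 in NSB (adjusted p = 1.45e-24). At day 9, when POU3F2 was farthest below NSB in PIP, POU5F1 stood above NSB in PIP, at 8.72 ± 0.05 in PIP and 7.92 ± 0.06 in NSB, a difference of 0.80 ± 0.09 (adjusted p = 6.57e-08). By day 11 that difference was -0.19 ± 0.09 (adjusted p = 0.138).

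POU4F1 was higher in PIP than in NSB where POU3F1 and POU3F2 were lower. At day 9, with its probe detected on all 3 arrays of both groups, it averaged 8.01 ± 0.22 in PIP and 5.60 ± 0.10 in NSB, a difference of 2.41 ± 0.12 or 5.33-fold (adjusted p = 3.16e-15, limma). POU2F2, a class II factor best known from B cells, differed by -0.46 ± 0.14 in PIP against NSB at day 11 (adjusted p = 0.0184) but by -0.07 with arrays scaled to the median of all probes. Across the 5 tested genes, 2 were higher and 0 lower in PIP at day 9, where 20.8% of all genes were called, and 1 was higher and 1 lower at day 11, where 25.5% were called.

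**Figure D3:**
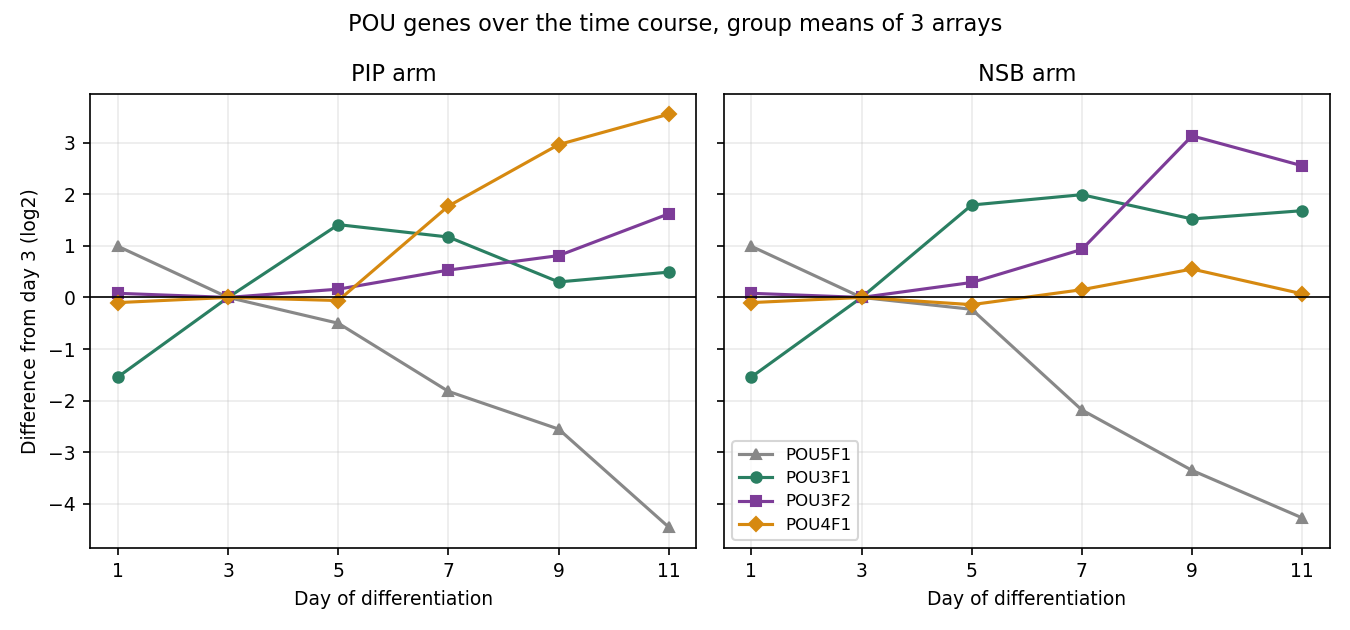
Group means of POU5F1, POU3F1, POU3F2 and POU4F1 as differences from day 3 (log2), against day, in PIP on the left and NSB on the right, with days 1 and 3 shared by both panels. POU5F1 goes down to -4.45 in PIP and -4.27 in NSB at day 11, POU3F1 and POU3F2 end higher in NSB than in PIP, and POU4F1, whose probe was detected on 1 of 3 arrays both at day 3 and in NSB at day 11, stands highest in PIP at day 11.

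SOX proteins pair with POU proteins on DNA, and their transcripts were lower in PIP or not separated by the test at days 9 and 11. Of 7 SOX genes on the list 6 were tested and SOX1 did not pass the filter. At day 9, 4 were lower in PIP and 0 higher, where 20.8% of all genes were called, and the median difference was -0.47 where that of all genes was -0.01. At day 11, 4 were lower and 0 higher, where 25.5% of all genes were called, and the median was -0.38 where that of all genes was 0. SOX21, a factor of neural progenitors, averaged 12.04 ± 0.06 in PIP and 12.77 ± 0.11 in NSB at day 9, a difference of -0.73 ± 0.08 (adjusted p = 3.14e-08, limma). The same gene differed by -0.81 ± 0.08 at day 11 (adjusted p = 3.12e-09). SOX11, which acts in early neurons, differed by -0.43 ± 0.08 at day 9 (adjusted p = 0.000128) and SOX3 by -0.68 ± 0.11 (adjusted p = 2.96e-05). The SOX2 probe lay near background in all groups, with means of 5.06 to 5.42. It was detected on 3 of 3 arrays only at day 3 and in PIP at day 5. In PIP 0 of 3 arrays were detected at days 7 and 11 and 2 of 3 at day 9. The probe was therefore taken to carry no information on SOX2, although it is counted among the 6 tested and in the medians. With arrays scaled to the median of all probes, which put the median of all genes at 0.28 at day 11, 1 of the 6 remained lower at day 11 and SOX12 stood at 0, while the day 9 counts did not change.

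Genes reported as targets of class III POU proteins included NES, the intermediate filament of neural progenitors, FABP7, a lipid carrier of radial glia, and DLL1, a Notch ligand. Of 11 listed genes 8 were tested, ZIC1 and CRH did not pass the filter and EGR2 was not analysed here. In PIP against NSB, 5 of 8 were lower and 0 higher at day 9, with a median of -0.47 where that of all genes was -0.01 and 20.8% of them were called. At day 11, 6 were lower and 1 higher, with a median of -0.52 where that of all genes was 0 and 25.5% of them were called. NES averaged 10.94 ± 0.11 in PIP and 11.88 ± 0.09 in NSB at day 9, a difference of -0.94 ± 0.12 (adjusted p = 9.98e-07, limma), and differed by -0.93 ± 0.12 at day 11. NES, like POU3F2, had its highest NSB level at day 9. DLL1 differed by -0.70 ± 0.08 at day 9 and -0.85 ± 0.08 at day 11, and FABP7 by -0.67 ± 0.08 and -0.63 ± 0.08. GNRH1, the reproductive releasing hormone, differed by -0.20 ± 0.12 at day 9 (adjusted p = 0.259) and by -0.88 ± 0.12 at day 11 (adjusted p = 1.09e-06).

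The exceptions on the target list were MITF and PAX6. MITF, a pigment cell factor, was 0.68 ± 0.11 higher in PIP at day 11 (adjusted p = 1.14e-05, limma). PAX6 did not pass at day 9 (-0.15 ± 0.09, adjusted p = 0.275) or day 11 (0.03 ± 0.09, adjusted p = 0.842). Scaling to the median of all probes left 3 lower and 2 higher at day 11, with FABP7 at -0.32, ZIC2 at -0.08 and EPHA4 at -0.01 no longer called and PAX6 at 0.39 called higher, and it left the day 9 counts as they were. Between days 3 and 11, 6 of the 8 rose and 2 fell in PIP, and 5 rose and 2 fell in NSB, the falls being NES and ZIC2 in both arms. Of all genes, 62.4% were called in PIP and 66.0% in NSB in these comparisons. EPHA4, an ephrin receptor, was among the largest rises, by 4.0 ± 0.09 in PIP and 4.40 ± 0.09 in NSB.

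**Figure D4:**
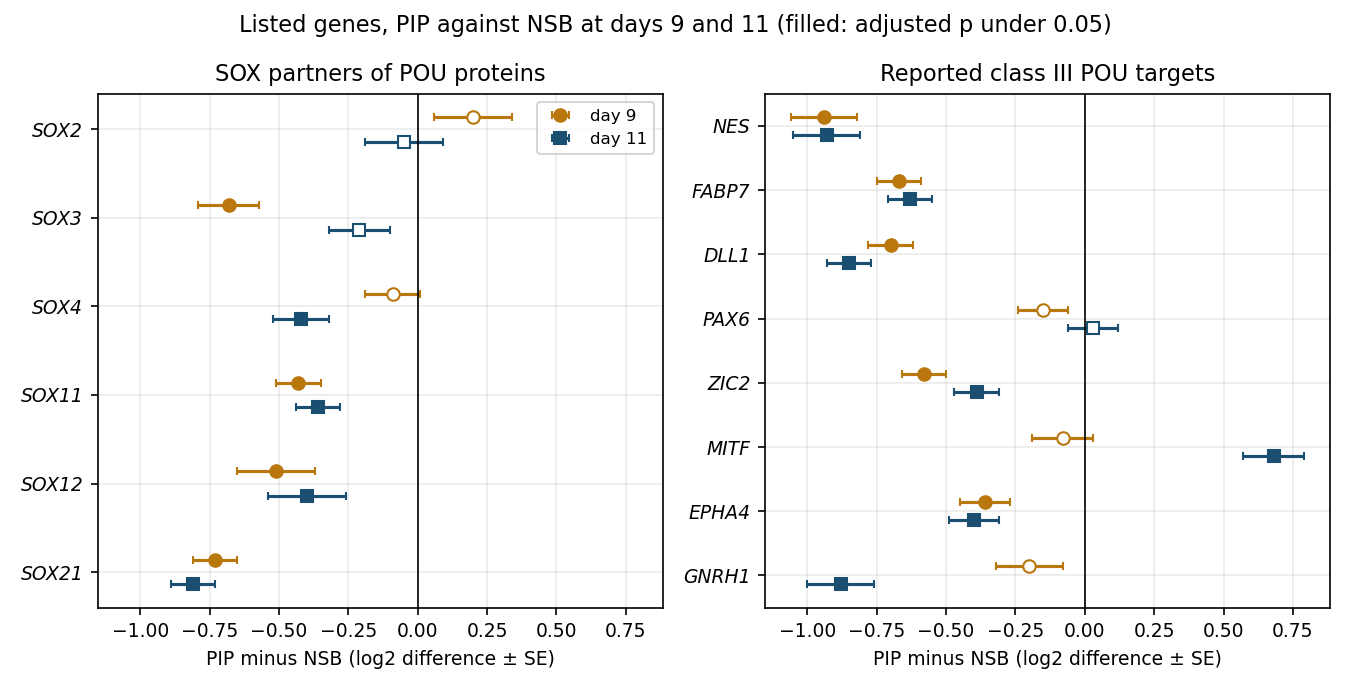
PIP minus NSB difference (log2, with standard errors) at day 9 and day 11 for the tested SOX partners on the left and the tested genes reported as class III POU targets on the right, with filled symbols for an adjusted p under 0.05. Most filled symbols lie left of 0, NES near -0.94 at day 9 and SOX21 at -0.81 at day 11, and MITF at 0.68 at day 11 lies to the right.

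Proneural and neuronal genes that act with POU3F2 were also lower in PIP at days 9 and 11 where called. Of 7 genes listed 3 were tested, 2 of them called lower and 0 higher on each of these days, where 20.8% and 25.5% of all genes were called. MYT1L and NEUROG1 did not pass the filter and the others were not analysed here. NEUROG2, a proneural factor, averaged 5.77 ± 0.17 in PIP and 7.05 ± 0.25 in NSB at day 9, a difference of -1.28 ± 0.16 (adjusted p = 3.5e-07, limma). At day 11 it averaged 8.72 ± 0.31 in PIP and 10.30 ± 0.14 in NSB, a difference of -1.58 ± 0.16 (adjusted p = 6.19e-09). NEUROG2 was lower at day 9 than at day 7 in both arms. The difference in PIP was -2.49 ± 0.16 (adjusted p = 4.02e-13, limma), and in NSB the mean went from 8.92 at day 7 to 7.05 at day 9. MYT1 differed by -0.52 ± 0.12 at day 9 and by -1.02 ± 0.12 at day 11, and INSM1 did not pass on either day (-0.05 and -0.14).

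Markers of other cell types moved between the arms on the same days, and their part in the POU3F differences was not tested. Between PIP and NSB, 20.8% of all genes were called at day 9 and 25.5% at day 11. All 8 non-neural ectoderm and placode markers were higher in PIP at days 9 and 11, and their summed linear level at day 9 was 20700 to 22300 on the PIP arrays and 7940 to 8480 on the NSB arrays. Such sums follow the brightest markers and do not measure shares of cells. KRT18, the brightest here, averaged 13.42 in PIP and 12.38 in NSB at day 9. At day 1, with 6 of the 8 markers detected on no array, the sum was already 6920 to 7820. Of 7 neural ectoderm and forebrain markers 5 were lower and 0 higher in PIP at day 9, with sums of 13800 to 14800 in PIP and 21400 to 22200 in NSB. At day 11, 4 were lower and 1 higher, with sums of 19900 to 20100 in PIP and 25600 to 27900 in NSB. Neuron markers had 6 of 7 genes tested, of which 3 were lower at day 9 and 4 at day 11 and 0 higher, with sums of 2500 to 2870 in PIP and 2990 to 3060 in NSB at day 9. Their sums at day 11 were 1710 to 2170 in PIP and 2850 to 3110 in NSB. TUBB3, the brightest neuron marker at day 9, averaged 10.88 in PIP and 10.83 in NSB on that day. Trophoblast and amnion markers had 4 of 5 higher and 1 lower in PIP at day 9, with sums of 2070 to 2400 in PIP and 216 to 218 in NSB.

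Pluripotency markers had 5 of 6 genes tested, 3 higher and 1 lower in PIP at day 9, and their sums were 15200 to 15800 in PIP and 14500 to 14700 in NSB. LIN28A, the brightest of them, averaged 13.35 in both arms at day 9. Neural crest markers had 2 of 5 higher in PIP at day 9 and 3 at day 11, and mesenchyme markers had 2 of 4 tested lower at day 9, then 2 higher and 1 lower at day 11. These counts stand beside 20.8% of all genes called at day 9 and 25.5% at day 11. Among the neural crest markers, PAX3 and FOXD3 lay near background on both days. At day 11 PAX3 averaged 5.30 in PIP, with 2 of 3 arrays detected, and 4.73 in NSB, with 0 of 3. SNAI2 lay the other way at day 11, at 6.61 in PIP and 6.99 in NSB, and was not called. With arrays scaled to the median of all probes, the counts of non-neural ectoderm markers, and the day 9 counts of neural ectoderm and neuron markers, did not change. At day 11 that scaling gave 2 neural ectoderm markers lower and 2 higher, 3 neuron markers lower and 1 higher, and 3 mesenchyme markers higher and 1 lower. Few markers of the other tissues in which POU3F1 or POU3F2 are known passed the filter. Of 6 Schwann and oligodendrocyte markers 1, SOX10, passed, and OLIG1 and OLIG2 did not. SOX10, also a neural crest marker, was detected on every array and averaged 7.84 ± 0.53 in PIP and 7.13 ± 0.29 in NSB at day 11, a difference of 0.71 ± 0.17 (adjusted p = 0.00261, limma). On the linear scale its day 11 levels were 150 to 290 in PIP and 116 to 174 in NSB, so the arrays overlapped. Of 5 epidermis markers 1, KRT10, passed, with levels of 10.10 ± 0.04 in PIP and 10.03 ± 0.18 in NSB at day 11, while KRT5, KRT14 and KRT1 did not, and of 6 mesendoderm markers 2 passed, with 0 of them called in PIP against NSB at days 9 or 11 except under scaling to the median of the probes detected on every array, which called EOMES lower at day 11 (-0.46).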

How the data were processed

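Total RNA of 30 samples was measured on bead arrays. Per the file headers, the deposited table gives for each probe and array an average bead intensity and a detection p-value, made in GenomeStudio per the submitters' processing notes, with no version stated and array medians that differ, so no normalization is visible. The authors' processed intensity values, some of them below 0, served as an alternative. An HT-12 array is named by the submitters, but the 48701 probes belong to an earlier set, and their genes were taken from the platform annotation.

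Intensities were corrected with neqc in limma 3.58.1 (R 4.3.3), using detection p-values, an offset of 16 and quantile normalization. Probes detected on at least 3 arrays were kept, and the brightest probe stood for a gene, which left 13488 genes. One mean per group was fitted over all arrays (20 residual and 6.95 prior degrees of freedom), with 2-sided moderated tests and Benjamini-Hochberg adjustment. Comparisons numbered 19, of which 3 were added after the levels had been seen. Bounds on folds set undetected arrays to at least the lowest detected level. The number of arrays limits the precision.

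The POU3F genes and all lists were chosen with earlier results of these data known. Named genes were the members, for each tested member the 5 genes with the highest Pearson correlation over the group means, and the listed genes. The labels do not say whether replicate numbers pair arrays. The mean correlation of residuals was -0.009 for equal numbers and 0.005 for others. Pairs of equal number ran from -0.309 to 0.275, so these means do not exclude a pairing. The model was tested on simulated data. Alternatives covered background correction, scaling, filter, probe rule, samples in the fit, a replicate block and each array left out. Each POU3F gene has 1 probe, so no second probe could be compared.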

Additional observations from a re-analysis of the deposited data

Results flagged for a closer look

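Values that differed between the arms by a test of the change itself were flagged in 4 cases. For POU3F1 the PIP minus NSB difference changed by -0.80 between days 5 and 11. For POU3F2 it changed by -0.80 over the same days, by -1.92 between days 7 and 9 and by 1.39 between days 9 and 11. With each array left out in turn, the POU3F2 changes ran from -2.01 to -1.79 between days 7 and 9 and from 1.23 to 1.51 between days 9 and 11.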

How the results depend on the processing

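The PIP against NSB calls of POU3F1 at days 7, 9 and 11 and of POU3F2 at days 9 and 11 held under all 9 alternatives and with each array left out. Over the alternatives the difference was -1.34 to -1.07 for POU3F1 and -2.34 to -1.63 for POU3F2 at day 9, and -1.19 to -0.78 and -0.96 to -0.59 at day 11. No called value changed sign. Among values that passed in neither fit, POU3F1 changed to -0.35 in NSB day 11 against day 9 and to -0.03 in NSB day 7 against day 5 with arrays scaled to the median of all probes, POU3F2 to 0.05 between the arms at day 5 with scaling on probes detected on every array, and with 1 array left out POU3F2 to 0.03 at day 3 against day 1 and POU3F1 to -0.02 for the change from day 9 to day 11. The replicate block changed no call of either gene, and gave -2.32 for POU3F2 in PIP against NSB at day 9 (adjusted p = 7.99e-14, limma) and 2746 genes called there, against 2811. Across alternatives 318 values of POU3F1 and POU3F2 kept their side of the threshold, 12 gained a call and 12 lost one, and 162 counts of called genes stayed within 1.5 times and 9 did not. The cause of each change below was not tested. Scaling to the median of all probes gave 2846 genes called in PIP day 7 against day 5 (4520 in the reported fit), 1081 in PIP against NSB at day 7 (1678), 5628 at day 11 (3442), 6248 for the change from day 5 to day 11 (2690) and 4934 for that from day 9 to day 11 (1093). It put 94.3% of the calls at day 11 higher in PIP, against 55.5%. For POU3F1 it gave 0.29 in PIP day 11 against day 3, -0.33 in NSB day 9 against day 7, -0.21 for the change from day 5 to day 11 and 0.56, then called, for that from day 9 to day 11. For POU3F2 it gave -0.45 for the change from day 5 to day 11, -0.34 between the arms at day 7 and 0.39 in PIP day 7 against day 5. Scaling to the median of the probes detected on every array gave POU3F2 differences of -0.44 at day 3 against day 1, 0.35 in PIP day 5 against day 3 and 0.44 in PIP day 9 against day 7, all then called, and 0.30 in PIP day 7 against day 5, no longer called. It gave -0.45, then called, for the POU3F1 change from day 5 to day 7, and 1849 genes called for the change from day 9 to day 11. Without background correction POU3F1 gave -0.21 in PIP day 7 against day 5 and -0.40 for the change from day 5 to day 7, both then called, and POU3F2 gave 0.39 in NSB day 5 against day 3, then called, and -0.26 in PIP against NSB at day 7, no longer called. The authors' processed values gave POU3F2 differences of 0.50 in NSB day 5 against day 3, then called, and -0.51 at day 7 and -0.61 for the change from day 5 to day 11, no longer called. Without the filter the day 7 value of POU3F2 was -0.40 and not called. A fit on only the arrays compared gave 782 genes called at day 7, 491 for the change from day 7 to day 9 (864) and 638 for that from day 9 to day 11. In it POU3F2 lost its day 7 call (-0.40) and gained calls in PIP day 9 against day 7 (0.28) and NSB day 5 against day 3 (0.28), and POU3F1 gained one in PIP day 7 against day 5 (-0.24). With 1 array left out, POU3F2 ran from 0.32 to 0.44 in PIP day 7 against day 5 and from -0.53 to -0.32 between the arms at day 7, and POU3F1 from -0.45 to -0.30 between the arms at day 5 and from -0.52 to -0.37 for the change from day 5 to day 7. The last was called without NSB day 5 replicate 3 alone. At day 5, 875 to 1171 genes were called between PIP and NSB (875 without PIP day 5 replicate 1 and 978 without NSB day 5 replicate 3, against 1554). Counts for the change from day 7 to day 9 were 647 to 1433, the highest without NSB day 7 replicate 1. POU3F3 and POU3F4, never detected, ran with scaling on probes detected on every array from -0.43 and -0.50 to 0.64 and 0.80. Signals near background limit POU3F1 at day 1, POU3F2 before day 9 and in PIP at day 9, and POU3F3 and POU3F4 on all days.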
